A study of Mus musculus with 43 samples.

Results

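Whole hearts of mice carrying the Vegfa Q150X allele were compared at 30 days and at 7 days after myocardial infarction (MI). The 4 libraries of day 30 and 4 libraries of day 7 were chosen by the genotype and time labels from the 43 libraries of the series. Their titles give the genotype as ho, against wt for wild type, and do not spell out the zygosity further. Q150X is a stop-gained substitution made in mice with CRISPR/Cas9 as a model of a human VEGFA variant, and VEGFA is the secreted growth factor that drives blood vessel growth through its endothelial receptors. Each library holds bulk RNA of total cardiac cells, extracted with Trizol. The other hearts used here were Q150X uninjured (3 libraries), wild type (WT) at day 30 (3 libraries), WT at day 7 (4 libraries) and WT uninjured (3 libraries). The sources used here do not give age, sex or the number of animals behind a library, so each p-value measures the spread between libraries, which may in part be technical. That spread was estimated for each gene over all 21 heart libraries, so differences within the uninjured groups enter it too. Per-gene counts carry no allele information and could not check the Q150X label.

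After an infarct, dead muscle is cleared by phagocytes, fibroblasts lay down a collagen scar, and the surviving myocardium enlarges and remodels. Healthy cardiomyocytes draw most of their energy from fatty acids, taken up through capillary endothelium and burned in mitochondria under control of the nuclear receptor PPARα. Type I interferons switch on a set of antiviral genes through their receptor and a complex that holds STAT2 and IRF9, and infarcted hearts are known to do so as well.

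The 8 libraries held 27617401 to 37356177 counts, with 21780 to 22960 genes detected in each. Cardiomyocyte markers made up 30535 to 45041 CPM (counts scaled to library size) at day 30 and 37045 to 43445 CPM at day 7, so markers of the labelled tissue were present. Xist was at or under 0.335 CPM in all 8, and Ddx3y of the Y chromosome was at 55.1 to 59.8 CPM at day 30 and 73.6 to 98.2 CPM at day 7, without overlap (log2 fold change -0.62 ± 0.17 SE, adjusted p = 0.0114). Of 5 sex-linked genes 3 fell, and none did with the library coefficient described next. Mitochondrially encoded genes took 26.5 ± 3.03% of counts at day 30 and 24.9 ± 2.29% at day 7 (SD, n = 4 each), a difference of 1.66 percentage points with p = 0.4 in a two-sided exact permutation test, whose smallest possible p is 0.0286.

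Several libraries stood apart in ways that the groups do not explain. The mitochondrial transcript mt-Atp8, whose gene overlaps mt-Atp6, had 551, 705, 399.8 and 609 CPM at day 30, against 15.9, 21.5, 20.8 and 21.2 CPM at day 7. The same split ran through hearts with no infarct, where library 1 of Q150X had 355 CPM against 27.6 and 33.5 CPM in libraries 2 and 3, and library 1 of WT had 390.3 CPM against 18 and 29.2 CPM. All 3 WT day 30 libraries were also high, at 450.2 to 575 CPM, and the 4 WT day 7 libraries low, at 14.5 to 37.9 CPM. A trait of the libraries therefore moved with the day, and for many genes below values are also given from a fit with 1 added coefficient for the high libraries (all day 30 libraries and library 1 of each uninjured group), called the library coefficient. Library 1 of each uninjured group also held transcripts of other tissue. The atrial light chain Myl7 was at 467 CPM in Q150X library 1 and 524 CPM in WT library 1, against at most 0.0335 CPM in uninjured libraries 2 and 3 and 0 to 2.76 CPM in Q150X hearts at day 30. Adipocyte markers summed to 133 and 92.8 CPM in those 2 libraries, against 0.838 to 1.34 CPM in libraries 2 and 3. Of 6 atrial markers 5 fell with the coefficient, with a median of -4.02, against none in the main test. The coefficient thus takes up the tissue content of those libraries together with the trait, and these cannot be told apart. Of 187 genes named by the rule, 94 lost their call with it and 22 turned their sign. The surfactant gene Sftpc of lung was at 0, 0.354, 689 and 342 CPM in day 30 libraries 1 to 4, against at most 0.0661 CPM at day 7. The fat hormone Adipoq was at 3.8, 18, 0.107 and 2.3 CPM in the same day 30 libraries, against at most 0.132 CPM at day 7. Day 7 library 2 was above the other day 7 libraries in interferon genes.

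**Figure D1:**
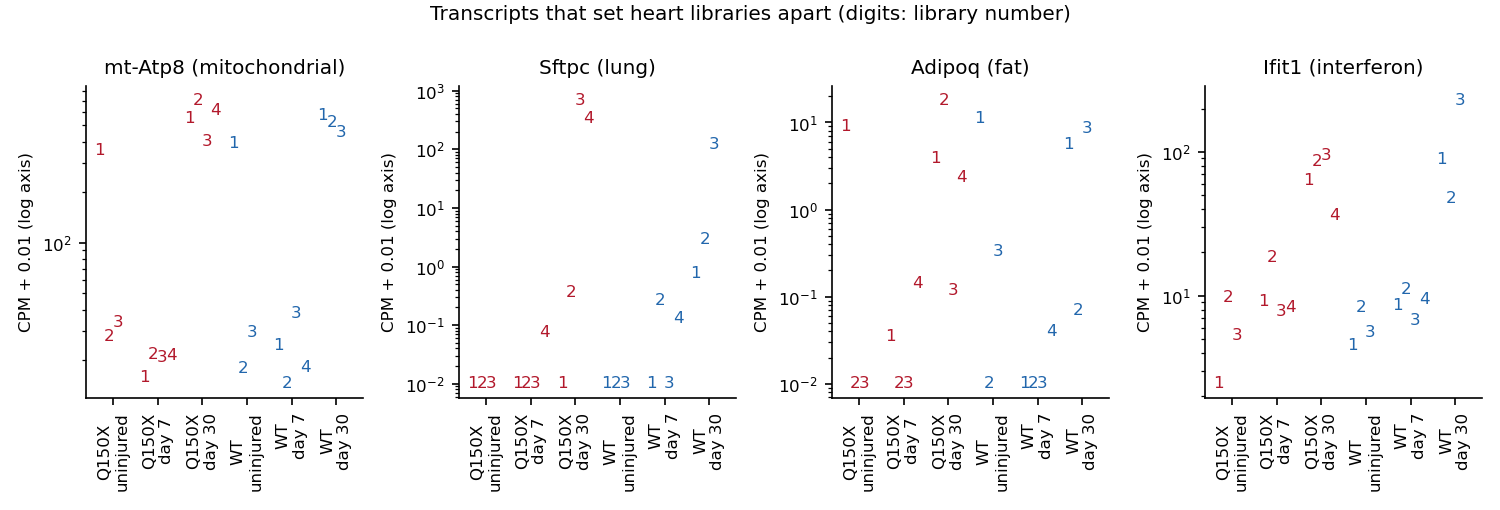
Levels of mt-Atp8, Sftpc, Adipoq and Ifit1 in each of the 21 heart libraries, in CPM + 0.01 on log axes, with each digit marking the library of that number, Q150X in red and WT in blue. All day 30 libraries and library 1 of both uninjured groups were high in mt-Atp8, Q150X day 30 libraries 3 and 4 held most Sftpc, and day 7 library 2 had the most Ifit1 of the Q150X day 7 libraries.

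Between day 30 and day 7, 5603 of 17845 genes tested (31.4%) changed in Q150X hearts at an adjusted p under 0.05 (edgeR quasi-likelihood test with Benjamini-Hochberg adjustment over all genes tested). Of these, 2650 (14.9% of genes tested) were higher at day 30 and 2953 (16.5%) were lower. A change of at least 1 on the log2 scale was reached by 2344 of the called genes (13.1%). The 2 groups of 4 libraries did not overlap in CPM for 6777 genes (38.0%). Among the 5603 called genes, 2904 (51.8%) moved the same way in library 1 of both uninjured groups, which lay beyond libraries 2 and 3 without overlap, and 318 (5.68%) in the opposite direction, with 51.3% of the rises and 52.3% of the falls in the first number. Library 1 lay beyond libraries 2 and 3 of both uninjured groups, in either direction, for 8987 of all genes tested (50.4%). That share takes in both directions, whereas the 51.8% counts the same direction alone. When the library coefficient was added, 2848 genes passed (16.0%), of which 916 were higher (5.13%) and 1932 lower (10.8%) at day 30, and 1146 of the 5603 were among them in the same direction. Without the 2 day 30 libraries that held Sftpc, 2941 of 18299 genes passed (16.1%), and without day 7 library 2, 4746 of 17758 (26.7%). The median log2 fold change of all genes tested was 0.01, and gene lists are read against it and against the 14.9% and 16.5%. Which of these 2 shares was the larger depended on the scaling, as given in the last section.

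**Figure D2:**
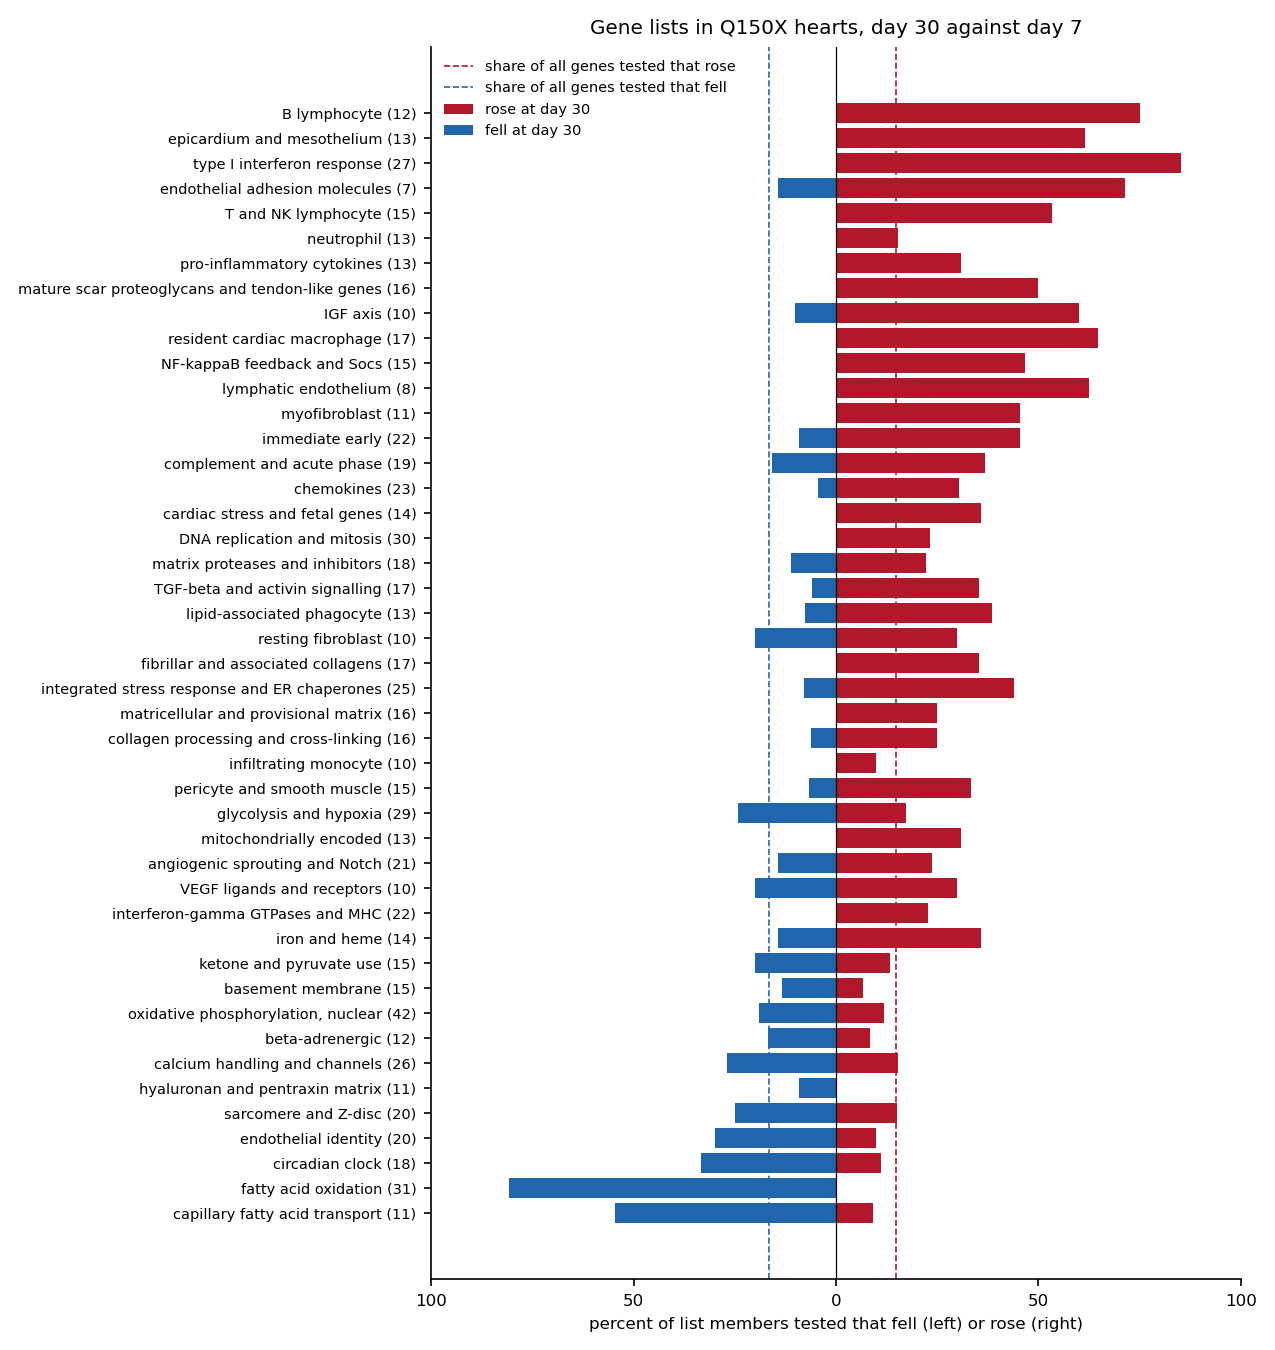
Percent of tested members of each gene list that rose (red, right) or fell (blue, left) at day 30 against day 7 in Q150X hearts, ordered by the list's median log2 fold change, with the number tested in brackets. Dashed lines mark the shares of all genes tested that rose (14.9%) and fell (16.5%). The fatty acid lists stand at the bottom, and the B lymphocyte, mesothelial and type I interferon lists at the top.

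Genes of fatty acid use were lower at day 30 than at day 7. Of 31 tested genes of fatty acid oxidation, 25 fell and none rose, with a median log2 fold change of -0.68. The list's summed level was 8093 to 9716 CPM at day 30 and 16307 to 20122 CPM at day 7. In uninjured Q150X hearts the sum was 12396 to 15744 CPM, between the 2 days, and neither day was tested against them here. The largest fall of all genes that the naming rule allowed was that of Pdk4, a kinase that inhibits pyruvate dehydrogenase. Pdk4 had 288, 129, 139 and 176 CPM at day 30, against 3771, 4832, 3284 and 4238 CPM at day 7. Every day 30 library was below every day 7 library by a wide margin (log2 fold change -4.46 ± 0.47 SE, adjusted p = 4.6e-06), a 22-fold lower level. Acot1, a cytosolic thioesterase that splits acyl-CoA, had 5.99, 3.15, 2.73 and 3.43 CPM at day 30, against 49.8, 78, 48.8 and 89.1 CPM at day 7. Its near-identical relative Acot2, the mitochondrial form, had 24, 19.98, 19.6 and 29.5 CPM at day 30, against 93.8, 119.6, 70.1 and 117 CPM at day 7. Both fell without overlap, Acot1 with log2 fold change -4.12 ± 0.32 SE, adjusted p = 2.1e-07 and Acot2 with log2 fold change -2.1 ± 0.21 SE, adjusted p = 1.8e-06, and reads may be split between them. Ucp3, a mitochondrial carrier induced by fatty acids, had 21, 16.5, 17.7 and 14.7 CPM at day 30, against 152, 194, 167 and 234 CPM at day 7. The day 30 libraries of Ucp3 lay close together, far under the day 7 range (log2 fold change -3.42 ± 0.32 SE, adjusted p = 1.7e-06).

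The remaining falls ran along the pathway. Angptl4, a secreted inhibitor of lipoprotein lipase, fell by 3.17 on the log2 scale, Mlycd, which lowers the malonyl-CoA that blocks fatty acid entry, by 1.41, and Ppargc1a, the coactivator of mitochondrial genes, by 1.24. The carnitine shuttle fell by smaller amounts, with Cpt1b at -0.96, Cpt2 at -0.67 and Slc25a20 at -0.47. Of the β-oxidation enzymes, Acadl (-0.99), Acaa2 (-0.96), Eci2 (-0.91), Hadha (-0.68) and Hadhb (-0.62) fell. Etfb, which passes their electrons on, was at -1.79. Ppara, Esrra, Acadm, Acadvl, Echs1 and Etfa did not pass the test. With the library coefficient, 18 of the 31 fell and none rose, and without day 30 libraries 3 and 4, 17 fell.

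**Figure D3:**
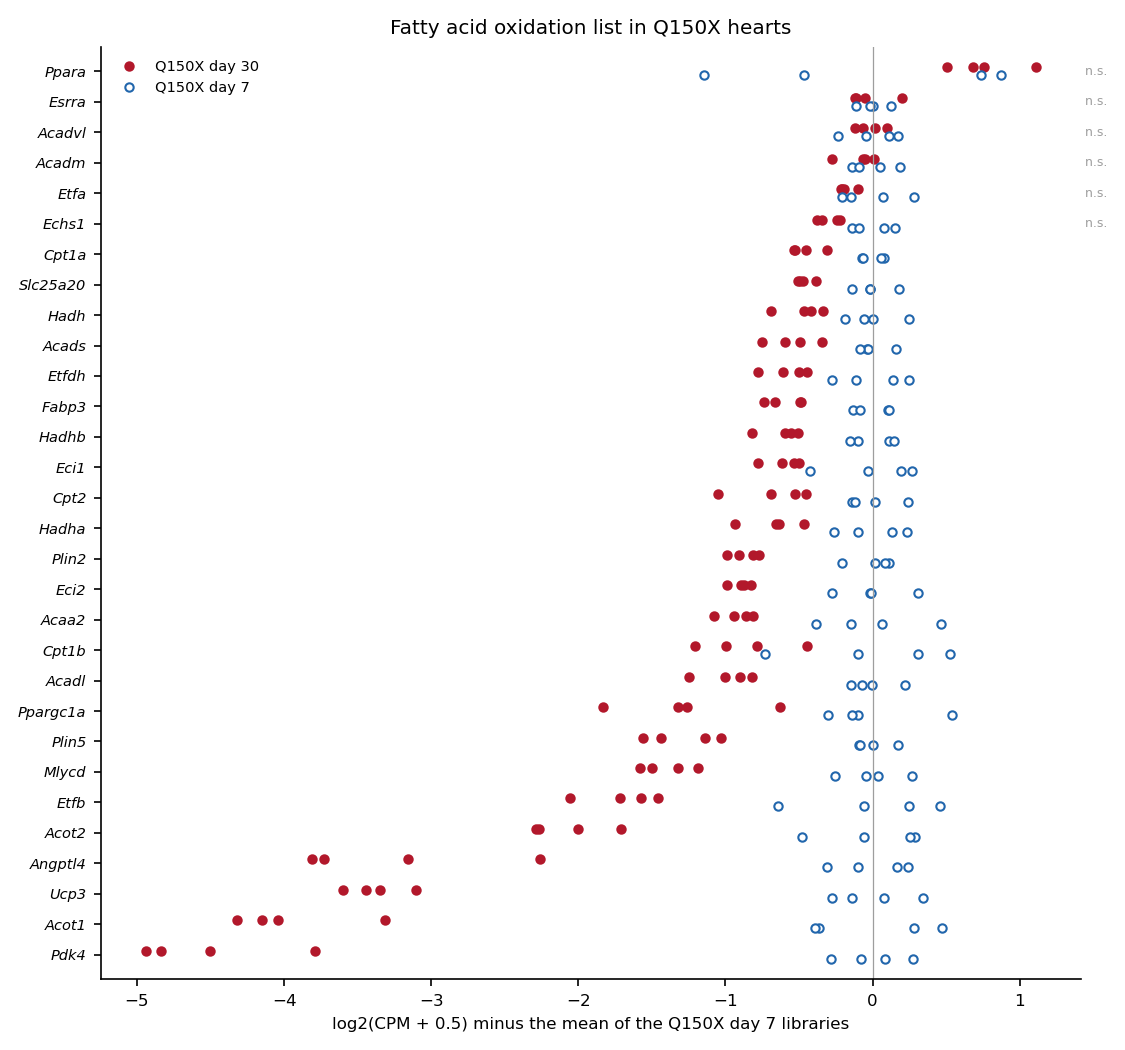
Tested genes of the fatty acid oxidation list in the 8 Q150X libraries, as log2(CPM + 0.5) minus the mean of the day 7 libraries, with day 30 as filled red and day 7 as open blue points. Genes marked n.s. did not pass the test. Pdk4, Acot1, Ucp3 and Angptl4 stand more than 3 log2 units below the day 7 mean on average.

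Capillary genes that feed fatty acids to the muscle fell too. Of 11 tested, 6 fell and 1 rose, with a median of -1.26, and 6 fell without day 30 libraries 3 and 4. With the library coefficient 6 fell as well, with a median of -0.82, but these were not the same 6, as Lpl lost its call. Cd36, the fatty acid translocase, had 912, 788, 804 and 958 CPM at day 30, against 2421, 2812, 2378 and 2674 CPM at day 7. Fabp4, the lipid chaperone of capillary endothelium and fat, had 366, 356, 379 and 417 CPM at day 30, against 1116, 1078, 1441 and 1561 CPM at day 7. Neither overlapped between the days (log2 fold change -1.57 ± 0.20 SE, adjusted p = 1.6e-05 for Cd36 and log2 fold change -1.78 ± 0.18 SE, adjusted p = 1.8e-06 for Fabp4), and Fabp4 fell although the fat hormone Adipoq was higher in 3 of the 4 day 30 libraries. Car4, a carbonic anhydrase of the capillary surface, had 19.2, 14.1, 17.3 and 15.5 CPM at day 30, against 61, 78.5, 95.7 and 99.7 CPM at day 7 (log2 fold change -2.34 ± 0.25 SE, adjusted p = 5.3e-06). Slc27a1, a fatty acid transport protein, had 128, 126, 93.5 and 130.1 CPM at day 30, against 292, 381, 436 and 482 CPM at day 7 (log2 fold change -1.74 ± 0.23 SE, adjusted p = 2.6e-05), and day 30 library 3 lay below the other 3. Lpl, which frees fatty acids from lipoproteins, had 2858, 3157, 2187 and 2923 CPM at day 30, against 5780.5, 7210.5, 6448 and 7153 CPM at day 7 (log2 fold change -1.26 ± 0.22 SE, adjusted p = 4.1e-04). The log2 fold change of Lpl was -0.23 (adjusted p = 0.485) with the library coefficient. Falls were also smaller with it for Cd36 (-0.68), Fabp4 (-1.21) and Car4 (-1.55), and larger for Slc27a1 (-2.55). Cd36, Fabp4 and Lpl were lower in library 1 of both uninjured groups than in libraries 2 and 3, as was the list's summed level. Part of the fall may therefore belong to the library trait or the tissue content of those libraries, which was not tested. Gpihbp1, which anchors LPL to capillaries, was at -1.35. Meox2, a transcription factor of these capillaries, was the 1 gene of the list that rose, at 0.75.

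Fuel genes outside fatty acid use showed no common direction. Of 15 genes of ketone and pyruvate use, 2 rose and 3 fell with a median of 0.01, where Bdh1, the mitochondrial ketone dehydrogenase, rose (log2 fold change 1.42 ± 0.35 SE, adjusted p = 0.00592). Of 29 genes of glycolysis and hypoxia, 5 rose and 7 fell. Among these, Bnip3, a mitophagy receptor induced by hypoxia, had 80.6, 65.8, 62.8 and 74.4 CPM at day 30, against 207, 284, 229.6 and 228 CPM at day 7 (log2 fold change -1.74 ± 0.17 SE, adjusted p = 1.6e-06), without overlap. Nuclear genes of oxidative phosphorylation counted 5 rises and 8 falls among 42, with Uqcrc1 (log2 fold change -0.79 ± 0.15 SE, adjusted p = 7.0e-04) falling and Cycs, cytochrome c, rising (log2 fold change 0.51 ± 0.13 SE, adjusted p = 0.00594). Of 13 mitochondrially encoded genes 4 rose, namely mt-Nd3, mt-Nd4l, mt-Nd5 and mt-Atp8, and none did so with the library coefficient.

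Type I interferon genes were higher at day 30. Of 27 tested, 23 rose and none fell, with a median log2 fold change of 2.00. Before their values, promoters of 3 of them are shown, because the motif of interferon-stimulated response elements was frequent on this list. The letters GAAANNGAAA, searched on both strands with overlaps allowed, occurred in the RefSeq promoters (250 bases before to 50 after the gene start, GRCm38.p6) of 11 of the 19 list members that have an entry (57.9%). They occurred in a promoter of 1079 of all 27025 genes with an entry (3.99%). Among the 12006 tested genes with an entry, 467 had a promoter that held them (3.89%). Of the 18 risen members with an entry, 10 held it: Ifit1, Ifit3, Ifit3b, Isg15, Oas1a, Oas3, Bst2, Stat2, Ddx58 and Ifih1. Capitals mark matches, read 5′ to 3′ on the gene's strand. Isg15 (chr4:156200769-156201068, minus strand) has 3 overlapping matches that lie 56 to 78 bases before the gene start. Ifit1 (chr19:34640639-34640938, plus strand) has 2 separate ones, both read on the other strand, 75 to 104 bases before it. Bst2 (chr8:71537423-71537722, minus strand) has 2 overlapping ones, 114 to 130 bases before it. A match describes letters and does not show a bound site.
Isg15: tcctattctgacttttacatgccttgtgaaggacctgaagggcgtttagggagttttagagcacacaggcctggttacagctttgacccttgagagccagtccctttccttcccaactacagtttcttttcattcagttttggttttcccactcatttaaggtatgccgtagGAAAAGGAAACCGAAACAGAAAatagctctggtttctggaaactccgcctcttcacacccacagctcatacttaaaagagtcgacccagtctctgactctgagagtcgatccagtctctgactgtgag
Ifit1: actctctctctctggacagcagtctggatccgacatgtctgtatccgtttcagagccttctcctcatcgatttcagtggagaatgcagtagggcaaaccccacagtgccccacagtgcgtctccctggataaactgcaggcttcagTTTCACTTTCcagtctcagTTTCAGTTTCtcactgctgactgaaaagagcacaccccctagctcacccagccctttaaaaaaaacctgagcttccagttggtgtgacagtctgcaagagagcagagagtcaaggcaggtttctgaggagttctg
Bst2: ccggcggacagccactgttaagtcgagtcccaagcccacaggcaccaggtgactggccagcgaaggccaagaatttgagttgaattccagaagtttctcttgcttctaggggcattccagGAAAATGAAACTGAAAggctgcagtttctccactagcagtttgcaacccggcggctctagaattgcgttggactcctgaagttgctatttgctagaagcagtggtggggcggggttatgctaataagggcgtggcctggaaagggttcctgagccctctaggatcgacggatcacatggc

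The genes with these promoters rose together. Isg15, a ubiquitin-like protein, had 24.2, 33, 43.2 and 15.8 CPM at day 30, against 3.03, 6.52, 3.23 and 3.97 CPM at day 7 (log2 fold change 2.79 ± 0.41 SE, adjusted p = 9.5e-05). Ifit1, which binds viral RNA, had 63.7, 85.7, 94.9 and 35.8 CPM at day 30, against 9.05, 18.3, 7.76 and 8.26 CPM at day 7 (log2 fold change 2.69 ± 0.47 SE, adjusted p = 4.9e-04). Bst2 (tetherin), which holds budding virus at the cell surface, had 94.9, 102, 163 and 67.2 CPM at day 30, against 17.1, 34, 12.9 and 13.8 CPM at day 7 (log2 fold change 2.45 ± 0.29 SE, adjusted p = 1.1e-05). In all 3, day 7 library 2 was the highest of its day and still below every day 30 library, and day 30 library 4 was the lowest of its day. Regulators of the pathway moved the same way. Irf7, the transcription factor that amplifies interferon production, had 154, 157, 171 and 80.3 CPM at day 30, against 27.1, 55.3, 18.9 and 22.6 CPM at day 7 (log2 fold change 2.18 ± 0.31 SE, adjusted p = 5.6e-05). Irf9, the DNA-binding partner of STAT2, had 56.5, 55.8, 73.3 and 46 CPM at day 30, against 15.7, 29.6, 12.9 and 14.1 CPM at day 7 (log2 fold change 1.68 ± 0.23 SE, adjusted p = 3.8e-05). Usp18, the feedback inhibitor that removes ISG15, had 22.4, 28.6, 36.4 and 14.5 CPM at day 30, against 3.06, 5.2, 3.47 and 2.64 CPM at day 7 (log2 fold change 2.83 ± 0.32 SE, adjusted p = 7.6e-06), without overlap between the days. Ifi27l2a had the highest log2 fold change of the list, 3.45, and Ifih1, an RNA sensor, one of the smallest that passed, 0.93. Mx1, Rsad2 and Zbp1 were among those that did not pass. With the library coefficient 19 of the 27 rose, without day 30 libraries 3 and 4 18 rose, and without day 7 library 2 24 rose, so the list's direction did not rest on that library.

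Interferon-γ-responsive GTPases and antigen presentation genes changed their count of calls with day 7 library 2. Of 22 tested, 5 rose and none fell, with a median of 0.09, while without day 7 library 2, 18 rose and none fell. Iigp1, an interferon-inducible GTPase, had 67.9, 93.7, 83.3 and 49.6 CPM at day 30, against 44, 482, 25.1 and 25.4 CPM at day 7. Gbp2, a guanylate-binding protein, had 51, 62, 62.9 and 34.2 CPM at day 30, against 33.9, 363, 18 and 23 CPM at day 7. Day 7 library 2 was above every other library of both days for each, and neither passed the test with all 8 libraries (log2 fold change -0.97 ± 0.73 SE, adjusted p = 0.325 and log2 fold change -1.06 ± 0.71 SE, adjusted p = 0.262). Without it, Iigp1 was at 1.22 (adjusted p = 0.0188) and Gbp2 at 1.07 (adjusted p = 0.0198). The 5 that rose with all libraries were H2-Ab1, H2-Eb1, H2-Aa, H2-D1 and B2m, all of antigen presentation by major histocompatibility complexes. H2-Ab1, a class II chain, had 223, 159.6, 253 and 81.5 CPM at day 30, against 48, 95.6, 21.2 and 23.8 CPM at day 7 (log2 fold change 1.93 ± 0.55 SE, adjusted p = 0.0141), with day 7 library 2 above day 30 library 4 (2.53 without that day 7 library). H2-D1, a class I chain, had 773, 766, 900.01 and 673 CPM at day 30, against 345, 636, 236 and 297 CPM at day 7 (log2 fold change 1.04 ± 0.26 SE, adjusted p = 0.00574), without overlap. Only 1 of the 22 rose with the library coefficient.

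**Figure D4:**
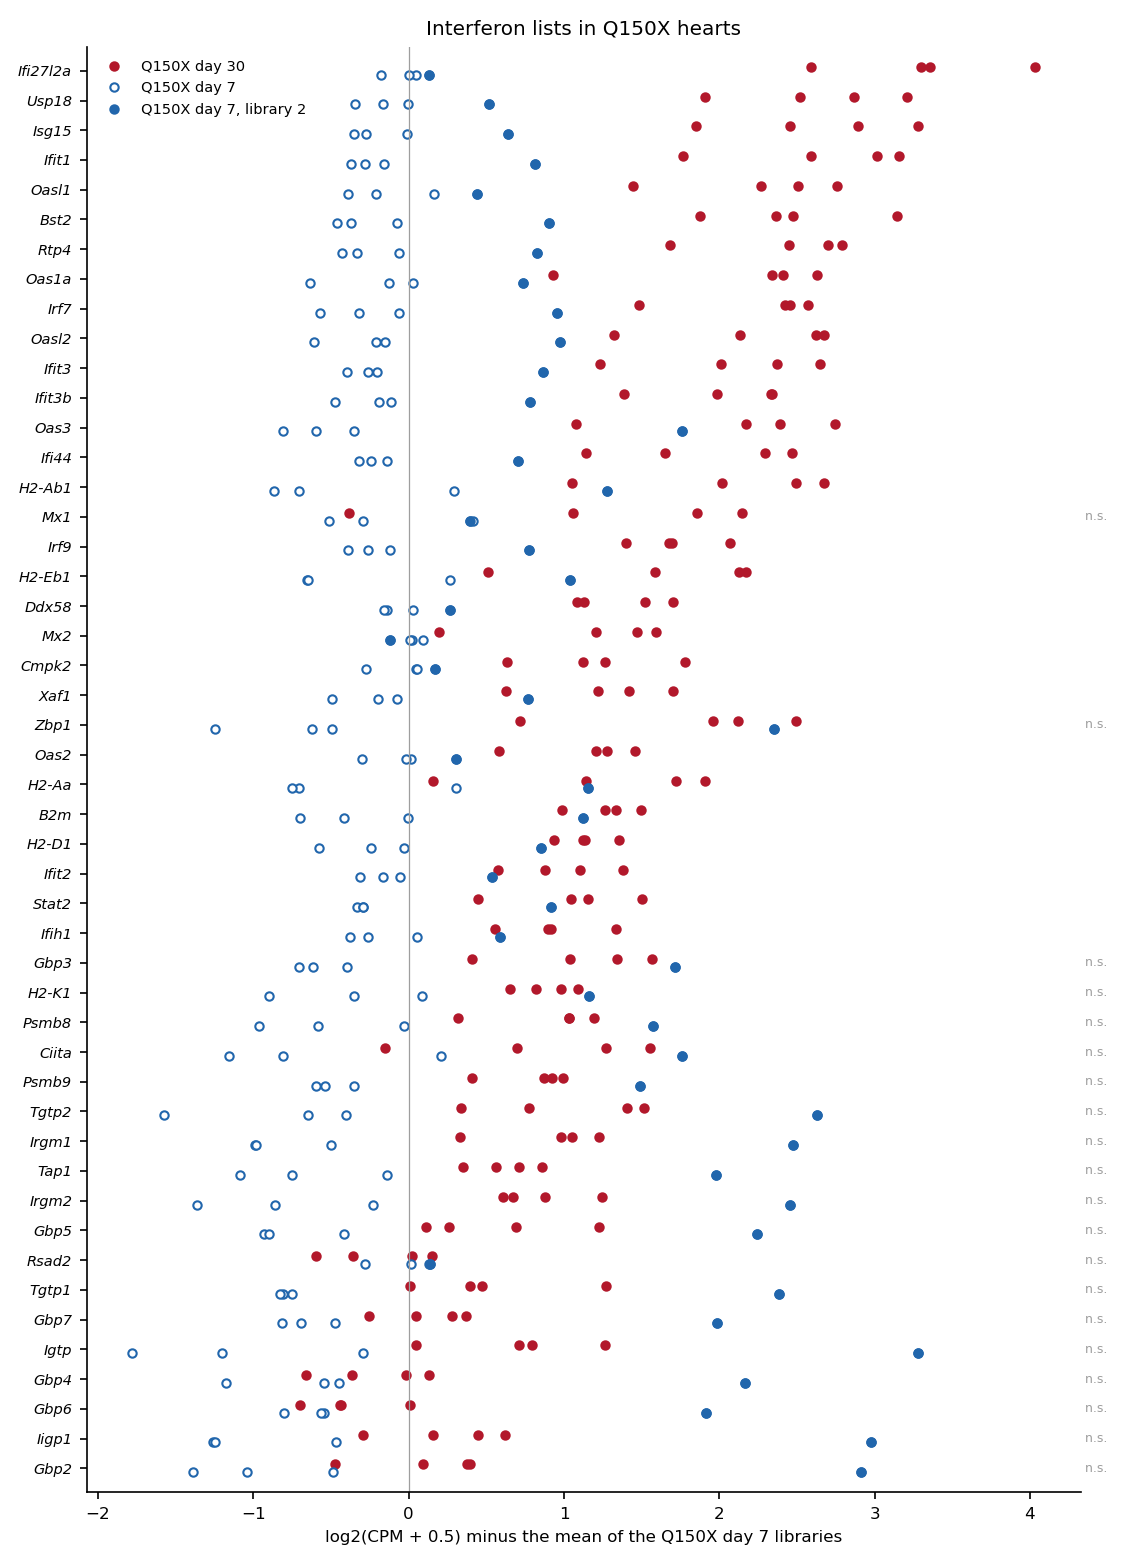
Tested genes of the type I interferon and the interferon-γ lists in the 8 Q150X libraries, as log2(CPM + 0.5) minus the mean of the day 7 libraries. Day 30 is in filled red, day 7 in open blue, with day 7 library 2 in filled blue. That library lies above all others for GTPases such as Iigp1 and Gbp2 at the bottom, but below every day 30 library for Isg15, Ifit1, Bst2 and Usp18 near the top.

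Markers of resident macrophages were higher at day 30, with 11 of 17 rising and none falling at a median of 1.01. Folr2, a folate receptor of resident macrophages, had 12.2, 6.79, 15.5 and 2.06 CPM at day 30, against 0.715, 0.881, 0.883 and 0.959 CPM at day 7 (log2 fold change 3.41 ± 0.49 SE, adjusted p = 6.7e-05). Timd4, a receptor for dying cells, had 10.4, 3.64, 13.2 and 0.891 CPM at day 30, against 0.764, 1.65, 0.122 and 0.231 CPM at day 7 (log2 fold change 3.34 ± 0.71 SE, adjusted p = 0.00199). Cbr2, a carbonyl reductase, had 44.7, 31.9, 88.4 and 36.4 CPM at day 30, against 7.99, 6.49, 7.4 and 8.89 CPM at day 7 (log2 fold change 2.71 ± 0.43 SE, adjusted p = 1.7e-04). The days did not overlap for Folr2, where library 4 was the lowest of day 30, and they overlapped for Timd4, where day 7 library 2 lay above day 30 library 4 (4.19 without that day 7 library). Lyve1 (0.81), Vsig4 (1.95), Cx3cr1 (1.82), C1qa (1.29) and Adgre1 (1.27) also rose, whereas Cd163, Mrc1, F13a1, Mertk, C1qb and Csf1r did not pass. Without day 30 libraries 3 and 4, 13 rose, but with the library coefficient 1 rose, Folr2 at 2.42 (adjusted p = 0.0236). In bulk RNA more cells of a type and more RNA per cell cannot be told apart. Of 10 markers of infiltrating monocytes, Cd14 alone rose (log2 fold change 1.09 ± 0.30 SE, adjusted p = 0.0112), and without day 7 library 2, 4 rose.

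Lymphocyte transcripts were higher at day 30. Of 12 B cell genes 9 rose and none fell (median 2.04), and of 15 T and NK cell genes 8 rose and none fell (median 1.80). Most of the receptor genes stood at a few CPM or less. Ighm, the IgM heavy chain, had 41.5, 91.4, 236 and 42.4 CPM at day 30, against 14.9, 19.3, 4.35 and 7.24 CPM at day 7 (log2 fold change 3.16 ± 0.66 SE, adjusted p = 0.00201), with day 30 library 3 highest. Cd79a, a chain of the B cell receptor, had 0.912, 4.77, 2.87 and 4.25 CPM at day 30, against 0.123, 0.823, 0.244 and 0.0331 CPM at day 7 (log2 fold change 3.37 ± 0.71 SE, adjusted p = 0.00168). Cd2, an adhesion molecule of T cells, had 1.85, 2.58, 2.06 and 1.85 CPM at day 30, against 0.247, 0.353, 0.274 and 0.231 CPM at day 7 (log2 fold change 2.9 ± 0.59 SE, adjusted p = 0.00134). Day 30 was above day 7 in every library for Ighm, Cd79a and Cd2. Day 30 library 3, highest in Ighm, also held the most Sftpc, and without it Ighm was at 2.36 (adjusted p = 0.00733). Cd79a was at 4.53 (adjusted p = 3.8e-04) without day 7 library 2. Without day 30 libraries 3 and 4, 4 B cell and 2 T and NK cell genes rose, and with the library coefficient 3 and 1. Cd5l, secreted by macrophages, had 30.3, 20.2, 53.3 and 6.37 CPM at day 30, against 2.22, 0.47, 0.487 and 0.463 CPM at day 7 (log2 fold change 4.89 ± 0.71 SE, adjusted p = 2.0e-04), and Retnla, a marker of alternatively activated macrophages, had 8.6, 11, 11.2 and 2.4 CPM at day 30, against 0.296, 0.382, 0.913 and 0.264 CPM at day 7 (log2 fold change 4.16 ± 0.50 SE, adjusted p = 1.2e-05). Both were above every day 7 library in all 4 day 30 libraries. Iglv1, an immunoglobulin light chain segment, rose with log2 fold change 4.07 ± 0.82 SE, adjusted p = 0.00134. Cd5l was at 5.85 without day 7 library 1, and Iglv1 at 3.12 without day 30 library 3 and at 5.15 without day 7 library 2.

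Mesothelial and epicardial genes were uneven among day 30 libraries. Of 13 tested 8 rose and none fell, with a median of 2.01. Upk3b, a mesothelial surface protein, had 23.8, 127, 62.2 and 18 CPM at day 30, against 6.04, 1.41, 1.8 and 9.26 CPM at day 7 (log2 fold change 3.64 ± 1.02 SE, adjusted p = 0.0132). Muc16, a mucin of the same cells, had 3.28, 53, 13.8 and 4.49 CPM at day 30, against 3.6, 0.441, 1.7 and 3.7 CPM at day 7 (log2 fold change 2.98 ± 0.80 SE, adjusted p = 0.00955). For both, day 30 library 2 was the highest, and the days overlapped for Muc16 but not for Upk3b. That library also held the most adipocyte markers, 151 CPM summed against 1.85 to 34.7 CPM in the other day 30 libraries and at most 1.79 CPM at day 7, and their part in the result was not tested. Without that library Muc16 was at 1.6 (adjusted p = 0.0786) and Upk3b at 2.91 (adjusted p = 0.0451). The list's summed level was 218 to 673 CPM at day 30 and 52.9 to 130 CPM at day 7. Aldh1a2, which makes retinoic acid, had 15, 37.8, 19.7 and 16 CPM at day 30, against 7.72, 5.7, 5.33 and 8.66 CPM at day 7 (log2 fold change 1.69 ± 0.32 SE, adjusted p = 7.1e-04), without overlap. Under the library coefficient 2 of the 13 rose, and Upk3b was at -0.12.

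Several scar matrix genes were higher at day 30, but few were with the library coefficient. Of 16 genes of mature scar proteoglycans and tendon-like matrix 8 rose and none fell, with a median of 1.31, while 1 rose and 1 fell with the library coefficient. Comp, cartilage oligomeric matrix protein, had 224, 227, 543 and 489.9 CPM at day 30, against 52.6, 9.31, 43.2 and 11 CPM at day 7 (log2 fold change 3.67 ± 1.15 SE, adjusted p = 0.0235). Prelp, a collagen-binding proteoglycan, had 115, 137, 239.8 and 237 CPM at day 30, against 57.4, 31.3, 46.2 and 37.5 CPM at day 7 (log2 fold change 2.08 ± 0.44 SE, adjusted p = 0.00202). Dcn (decorin), which coats collagen fibrils, had 2113, 1315, 1990.5 and 1257 CPM at day 30, against 794, 842, 859.5 and 891 CPM at day 7 (log2 fold change 0.98 ± 0.22 SE, adjusted p = 0.00268). No day 30 library of the 3 genes overlapped with day 7, but with the library coefficient the log2 fold changes were -0.71 for Comp, 0.31 for Prelp and 0.30 for Dcn, none past the test. Comp also lost its call without day 7 library 2 (3.38, adjusted p = 0.0606) or 4 (3.4, adjusted p = 0.0637). Of 17 collagens 6 rose and none fell (median 0.48), among them Col6a1 (1.27), Col6a2 (1.49) and Col8a2 (2.35). The main scar collagens Col1a1 (0.16, adjusted p = 0.838) and Col3a1 (-0.07, adjusted p = 0.901) did not pass, and none of the 17 rose with the library coefficient. Without day 30 libraries 3 and 4, 4 of the proteoglycan and 2 of the collagen genes rose.

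An exception to this pattern was the gene of a collagen chaperone. Serpinh1, the collagen chaperone HSP47, had 348, 335, 403 and 344 CPM at day 30, against 185, 152, 160.3 and 122 CPM at day 7 (log2 fold change 1.21 ± 0.18 SE, adjusted p = 9.7e-05). The days did not overlap, and with the library coefficient the log2 fold change was 1.4 (adjusted p = 0.00198). Of the 16 genes of collagen processing and cross-linking, 4 rose and 1 fell in the main test, against 4 and 2 with the coefficient. Of 18 matrix proteases and inhibitors 4 rose and 2 fell, against 1 and 1 with the coefficient. Mmp2, gelatinase A, was at 185 to 315 CPM at day 30 and 46 to 92.5 CPM at day 7 (log2 fold change 1.93 ± 0.38 SE, adjusted p = 0.00117). Timp4, a metalloprotease inhibitor of cardiac muscle, had 26.6, 31.1, 23.5 and 22.5 CPM at day 30, against 72, 76.6, 83.3 and 99.3 CPM at day 7 (log2 fold change -1.67 ± 0.30 SE, adjusted p = 4.7e-04), without overlap, and Adamts5, an aggrecanase, fell (log2 fold change -0.74 ± 0.18 SE, adjusted p = 0.00478). Neither Mmp2 (0.54, adjusted p = 0.432) nor Timp4 (-0.73, adjusted p = 0.245) passed with the coefficient.

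Fibroblast states did not move as 1 block. Of 11 myofibroblast genes 5 rose and none fell, while 2 rose and 3 fell with the library coefficient and 2 rose without day 30 libraries 3 and 4. Lrrc15, a myofibroblast surface protein, had 16.7, 16.6, 13.2 and 10.01 CPM at day 30, against 7.45, 4.23, 3.96 and 4.3 CPM at day 7 (log2 fold change 1.5 ± 0.25 SE, adjusted p = 2.3e-04), without overlap. Acta2, smooth muscle actin, was at 124 to 184 CPM at day 30 and 59.3 to 73.7 CPM at day 7 (log2 fold change 1.25 ± 0.32 SE, adjusted p = 0.00618), with -0.04 under the library coefficient. Tagln also passed, but with at most 1.42 CPM in any of the 8 libraries its count is too low to describe this normally abundant smooth muscle transcript. Of 10 resting fibroblast genes 3 rose and 2 fell, against none and 2 with the coefficient. Dpt (dermatopontin) rose with log2 fold change 1.81 ± 0.31 SE, adjusted p = 3.6e-04, but was at 0.80 (adjusted p = 0.179) with the coefficient, and Scara5, a scavenger receptor of adventitial fibroblasts, had 17.4, 13.2, 20.9 and 9.8 CPM at day 30, against 31.7, 42.6, 46.4 and 58.2 CPM at day 7 (log2 fold change -1.54 ± 0.30 SE, adjusted p = 8.4e-04). In the TGF-β and activin list, 6 of 17 rose and 1 fell, while 2 rose without day 7 library 2 and 1 without day 30 libraries 3 and 4. Tgfb3, a ligand, had 69.5, 75.5, 99 and 72.4 CPM at day 30, against 38, 15, 32.8 and 22.5 CPM at day 7 (log2 fold change 1.55 ± 0.27 SE, adjusted p = 4.5e-04), and Tgfbr3, the co-receptor betaglycan, had 39, 46.8, 42.2 and 49.2 CPM at day 30, against 74.3, 86.2, 70.2 and 80.5 CPM at day 7 (log2 fold change -0.81 ± 0.16 SE, adjusted p = 8.3e-04). With the library coefficient no gene of this list rose and 2 fell, Tgfbr3 at -1.36 (adjusted p = 3.7e-05). Of 10 genes of the insulin-like growth factor axis 6 rose and 1 fell. The receptor Igf1r had 22.5, 24.1, 21.9 and 34 CPM at day 30, against 60.7, 69.4, 64.5 and 63.1 CPM at day 7 (log2 fold change -1.33 ± 0.16 SE, adjusted p = 9.8e-06), while the binding proteins Igfbp6 (2.23) and Igfbp7 (1.44) rose. With the coefficient no gene of the axis rose and 2 fell, and without day 30 libraries 3 and 4, 3 rose.

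Of 25 stress response genes and chaperones, 11 rose and 2 fell at day 30, against 9 and 3 with the library coefficient. Inducible heat shock genes were among the rises. Hspa1b, an inducible HSP70, had 31.9, 18.9, 76.4 and 53.1 CPM at day 30, against 1.85, 1.7, 1.58 and 1.75 CPM at day 7 (log2 fold change 4.71 ± 0.73 SE, adjusted p = 2.0e-04). Its near-identical copy Hspa1a had 17.7, 9.79, 47.5 and 33.6 CPM at day 30, against 1.23, 1.73, 1.7 and 2.18 CPM at day 7 (log2 fold change 3.99 ± 0.67 SE, adjusted p = 3.2e-04), and reads may be split between the copies. Dnajb1, the HSP40 partner, had 60.6, 41.5, 98.5 and 62.8 CPM at day 30, against 16.8, 16.7, 15.2 and 12.6 CPM at day 7 (log2 fold change 2.1 ± 0.25 SE, adjusted p = 1.1e-05). Every day 30 library exceeded every day 7 library for the 3 genes, and library 3 was the highest in each. Hsph1, a nucleotide exchange factor, rose by 1.81 on the log2 scale. The coefficient left Dnajb1 at 2.09 (adjusted p = 0.00275). Enzymes of amino acid synthesis also rose, with Asns at 0.86, Phgdh at 1.35 and Aldh18a1 at 1.3. Chac1, which degrades glutathione, fell (log2 fold change -1.68 ± 0.30 SE, adjusted p = 4.9e-04). Atf4, Ddit3 and Trib3 did not pass. Mt1, a metallothionein, had 106, 118, 72.9 and 119.5 CPM at day 30, against 199.9, 294, 316 and 319 CPM at day 7 (log2 fold change -1.44 ± 0.27 SE, adjusted p = 7.1e-04), without overlap. Of 19 complement and acute phase genes 7 rose and 3 fell (median 0.70), against none and 6 with the coefficient. Cfb, complement factor B, had 1.95, 2.83, 3.59 and 1.27 CPM at day 30, against 0.197, 0.411, 0.0609 and 0.0331 CPM at day 7 (log2 fold change 3.73 ± 0.75 SE, adjusted p = 0.00112). Lrg1, an acute phase protein, had 6.54, 10.3, 5.46 and 8.74 CPM at day 30, against 23.5, 35.8, 32.2 and 32.5 CPM at day 7 (log2 fold change -2.0 ± 0.26 SE, adjusted p = 2.6e-05), below every day 7 library in all 4 day 30 libraries.

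Cardiomyocyte lists of contraction and conduction held rises and falls, and the list of stress genes held rises alone. Of 20 sarcomere and Z-disc genes 3 rose and 5 fell, against 1 and 2 with the coefficient. Actc1, cardiac actin, had 10013, 9931, 7581 and 11642 CPM at day 30, against 5739, 3621, 4225 and 4608 CPM at day 7 (log2 fold change 1.11 ± 0.21 SE, adjusted p = 7.8e-04). Tnnt2, cardiac troponin T, had 3588, 3505, 2628 and 3435 CPM at day 30, against 4506, 4245, 5960.3 and 5515 CPM at day 7 (log2 fold change -0.62 ± 0.16 SE, adjusted p = 0.00653). Both separated the days, in opposite directions, and day 30 library 3 was the lowest of its day in each. Neither passed with the library coefficient. Of 26 genes of calcium handling and channels 4 rose and 7 fell. Kcnj2, the inward rectifier channel that sets the resting potential, had 15.5, 18.1, 16.2 and 17.1 CPM at day 30, against 37.7, 54.9, 45.9 and 41.2 CPM at day 7 (log2 fold change -1.42 ± 0.20 SE, adjusted p = 5.2e-05). Kcnd3, a channel of the transient outward current, had 7.9, 7.78, 7.61 and 10.6 CPM at day 30, against 26.1, 20.4, 25.6 and 29.1 CPM at day 7 (log2 fold change -1.58 ± 0.22 SE, adjusted p = 4.0e-05). Gja1 (connexin 43), the gap junction protein of ventricular muscle, had 301, 351, 285 and 365 CPM at day 30, against 205, 119, 153 and 132 CPM at day 7 (log2 fold change 1.09 ± 0.16 SE, adjusted p = 7.9e-05). The channels fell and the connexin rose without overlap, and Kcnj2, Kcnd3 and Gja1 also passed with the library coefficient. Adcy6, the adenylyl cyclase of β-adrenergic signalling, fell (log2 fold change -0.83 ± 0.11 SE, adjusted p = 3.1e-05), as did the phosphodiesterase Pde3a (log2 fold change -1.15 ± 0.19 SE, adjusted p = 2.3e-04). Of 14 cardiac stress and fetal genes 5 rose and none fell (median 0.61), against 2 and 1 with the coefficient (median -0.03). Tuba4a, an α-tubulin, had 320.3, 414, 315 and 381 CPM at day 30, against 71.6, 98.3, 67 and 97.9 CPM at day 7 (log2 fold change 2.1 ± 0.24 SE, adjusted p = 9.1e-06), without overlap. Nppa (0.59, adjusted p = 0.740), Nppb (1.09, adjusted p = 0.0692) and Myh7 (-0.30, adjusted p = 0.594), usual markers of a loaded heart, did not pass. In iron genes, Tfrc, the transferrin receptor, had 31.8, 43.5, 31.6 and 61.9 CPM at day 30, against 16.8, 17.4, 15.3 and 18 CPM at day 7 (log2 fold change 1.32 ± 0.27 SE, adjusted p = 0.00129), and Slc40a1 (ferroportin), the iron exporter, had 18.4, 12.6, 15.7 and 14.5 CPM at day 30, against 38.9, 45.5, 35.9 and 40.5 CPM at day 7 (log2 fold change -1.39 ± 0.15 SE, adjusted p = 4.9e-06). Day 30 was above day 7 for Tfrc and below it for Slc40a1 in every library.

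The VEGF axis was measured around the altered gene. Vegfa had 226, 204, 199.7 and 283 CPM at day 30, against 314, 289, 313 and 328 CPM at day 7 (log2 fold change -0.45 ± 0.34 SE, adjusted p = 0.330). Kdr (VEGFR2), the main signalling receptor, had 78.5, 88.3, 81.4 and 152 CPM at day 30, against 155, 157, 122 and 158 CPM at day 7 (log2 fold change -0.57 ± 0.27 SE, adjusted p = 0.116). Neither passed the test, whose SE also takes in the spread of the uninjured libraries. Vegfa was at 150 and 177 CPM in uninjured library 1 of Q150X and WT, against 483 to 654 CPM in uninjured libraries 2 and 3. Vegfa did not overlap between the days, while for Kdr day 30 library 4 and day 7 library 3 lay away from the others of their days. Without day 30 library 4, Kdr fell by 0.84 (adjusted p = 0.0272), and with the library coefficient it was at 0.44 (adjusted p = 0.415). Vegfa was at 1.38 (adjusted p = 2.9e-04) with the coefficient, so both genes had the opposite sign there and no direction is given. Flt1 (VEGFR1), a decoy receptor, had 71, 98.2, 82.2 and 148 CPM at day 30, against 137, 221, 180.4 and 209 CPM at day 7, with day 30 library 4 above day 7 library 1 (log2 fold change -0.90 ± 0.26 SE, adjusted p = 0.0119), and was at -0.39 (adjusted p = 0.548) with the coefficient. Pgf, placental growth factor, had 3.16, 5.27, 4.85 and 4.32 CPM at day 30, against 7.32, 9.31, 9.71 and 9.29 CPM at day 7 (log2 fold change -1.02 ± 0.21 SE, adjusted p = 0.00140), without overlap. Flt4 (VEGFR3), the lymphatic receptor, rose (log2 fold change 0.91 ± 0.19 SE, adjusted p = 0.00124), as did the co-receptor Nrp1 (log2 fold change 0.57 ± 0.17 SE, adjusted p = 0.0178). Nrp1 lost its call without day 30 library 4 or without day 7 library 3 or 4 (log2 fold changes of 0.471 to 0.527). With the coefficient Flt4 was at 0.51 (adjusted p = 0.208), while Nrp1 at 1.03 (adjusted p = 0.00579) and Pgf at -1.30 (adjusted p = 0.00729) passed.

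Endothelial lists held changes in both directions. Of 20 endothelial identity genes 2 rose and 6 fell, against none and 5 with the coefficient. Sox17, an arterial transcription factor, had 12.9, 9.62, 12.7 and 21.4 CPM at day 30, against 30.7, 48.1, 52.8 and 50.8 CPM at day 7 (log2 fold change -1.69 ± 0.36 SE, adjusted p = 0.00218). Of 21 sprouting and Notch genes 5 rose and 3 fell, against 2 and 3 with the coefficient. Notch4, the endothelial Notch receptor, had 20.1, 21.9, 23.9 and 42.2 CPM at day 30, against 66.2, 60.8, 68.2 and 81.3 CPM at day 7 (log2 fold change -1.36 ± 0.23 SE, adjusted p = 2.4e-04), and Hey2, a Notch target, had 3.19, 3.5, 2.95 and 3.36 CPM at day 30, against 6.29, 8.08, 8.19 and 7.64 CPM at day 7 (log2 fold change -1.22 ± 0.21 SE, adjusted p = 3.4e-04). Sox17, Notch4 and Hey2 did not overlap between the days and also passed with the library coefficient. Angpt2, the TIE2 ligand that loosens vessels, had 6.14, 11.6, 14.2 and 6.13 CPM at day 30, against 3.01, 2.7, 2.8 and 1.79 CPM at day 7 (log2 fold change 1.88 ± 0.33 SE, adjusted p = 4.1e-04). Esm1 and Apln, known from sprouting tip cells, rose by 1.9 and 2.12 on the log2 scale, while Dll4 and Cdh5 did not pass. Of 8 lymphatic genes 5 rose, led by the chemokine Ccl21a (log2 fold change 1.8 ± 0.27 SE, adjusted p = 9.8e-05), and none did with the library coefficient. In the mural list, Rgs5, a pericyte regulator of G protein signalling, had 360.4, 343, 387 and 360.4 CPM at day 30, against 599, 643, 747 and 661 CPM at day 7 (log2 fold change -0.87 ± 0.20 SE, adjusted p = 0.00292), with -0.01 under the coefficient.

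Acute inflammatory genes were split within day 30. Sele, endothelial E-selectin, had 3.98, 45.9, 0.991 and 40.1 CPM at day 30, against 0.345, 0.793, 0.426 and 0.231 CPM at day 7 (log2 fold change 5.64 ± 1.1 SE, adjusted p = 0.00127). Egr1, an immediate early transcription factor, had 19.4, 220.5, 34 and 194 CPM at day 30, against 14.8, 8.28, 13.1 and 24.5 CPM at day 7 (log2 fold change 2.95 ± 0.78 SE, adjusted p = 0.00972). Icam1, the leukocyte adhesion molecule, had 17.7, 177, 33 and 115 CPM at day 30, against 13.2, 24.1, 9.8 and 14.4 CPM at day 7 (log2 fold change 2.47 ± 0.67 SE, adjusted p = 0.0104). In the 3 genes day 30 libraries 2 and 4 were high and libraries 1 and 3 lower. Without library 2, Sele was at 5.03 (adjusted p = 0.00394) and Icam1 at 1.83 (adjusted p = 0.0442). The same 2 libraries were the highest in Tnfaip3, the NF-κB inhibitor A20 (6.9, 61.4, 11.3 and 60.5 CPM in libraries 1 to 4), and in the neutrophil chemokine Cxcl1 (2.22, 34.2, 3.94 and 35.6 CPM). Over the lists, 7 of 15 NF-κB feedback genes, 10 of 22 immediate early genes (with 2 falls), 4 of 13 cytokines and 7 of 23 chemokines (with 1 fall) rose. No gene of the 4 lists rose with the library coefficient. Without day 7 library 2, the rises numbered 7 in NF-κB feedback, 6 in immediate early genes, 5 in cytokines and 11 in chemokines. Without day 30 libraries 3 and 4 they numbered 4, 4, 1 and 5 in the same order.

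Of 30 genes of DNA replication and mitosis 7 rose and none fell, with a median of 0.60. Mcm5, a subunit of the replicative helicase, had 8.82, 7.74, 11.9 and 9.53 CPM at day 30, against 2.39, 2.56, 1.67 and 1.95 CPM at day 7 (log2 fold change 2.14 ± 0.27 SE, adjusted p = 1.6e-05), and Mcm2, another subunit, had 11.7, 13.4, 17 and 12.4 CPM at day 30, against 4.14, 4.64, 2.95 and 3.37 CPM at day 7 (log2 fold change 1.85 ± 0.26 SE, adjusted p = 5.8e-05). Both separated the days and passed with the library coefficient, whereas mitotic genes such as Mki67, Top2a and Cdk1 did not pass. Of 18 clock genes 2 rose and 6 fell. Nr1d2, a nuclear receptor that represses clock genes, had 57.5, 82.9, 71 and 71.4 CPM at day 30, against 123, 169, 149 and 178 CPM at day 7 (log2 fold change -1.13 ± 0.17 SE, adjusted p = 1.2e-04), without overlap. Bhlhe40, a repressor of the clock, rose (log2 fold change 0.86 ± 0.17 SE, adjusted p = 9.6e-04). With the coefficient 10 clock genes fell and 3 rose. The hour at which hearts were taken is not stated.

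Some of the largest single changes lay outside the lists. Chrna2, a nicotinic receptor subunit, had 0.882, 0.424, 0.884 and 0.411 CPM at day 30, against 9.91, 9.93, 4.6 and 7.57 CPM at day 7 (log2 fold change -3.6 ± 0.33 SE, adjusted p = 1.0e-06), and Clec12b, a C-type lectin, had 0.547, 0.46, 0.375 and 0.274 CPM at day 30, against 3.03, 7.81, 4.6 and 6.31 CPM at day 7 (log2 fold change -3.7 ± 0.43 SE, adjusted p = 9.6e-06). Fam214a had 26.3, 24.3, 17.8 and 19.5 CPM at day 30, against 111, 245, 291 and 272 CPM at day 7 (log2 fold change -3.39 ± 0.29 SE, adjusted p = 7.2e-07). The 3 genes fell without overlap and by a similar amount with the library coefficient (-3.43, -3.44 and -3.32). Clec18a (-4.03), Pbld1 (-3.83), Vwa3a (-3.7) and Lgals4 (-3.58) fell too, and Pbld1 may share reads with its copy Pbld2. The mitochondrial tRNA gene mt-Ts1 was at -3.76 and at 1.89 with the coefficient. Among rises, Car3 and Cfd, abundant in fat, had the highest log2 fold changes of the named genes. Car3 had 16.7, 135, 0.697 and 19.1 CPM at day 30, against 0, 0.0588, 0 and 0.0661 CPM at day 7, and Cfd had 24.4, 104, 0.857 and 27.2 CPM at day 30, against 0.0493, 0.353, 0 and 0.0661 CPM at day 7, both highest in the day 30 library with the most Adipoq, and with the coefficient neither passed. Without day 30 library 2, Car3 was at 8.5 (adjusted p = 0.0398) and Cfd at 7.17 (adjusted p = 0.0579), and Cfd also lost its call without any 1 of the day 7 libraries (adjusted p of 0.0513 to 0.0667). Alox15, a lipoxygenase, had 5.9, 4.42, 8.81 and 16.3 CPM at day 30, against 0.296, 0.353, 0.0609 and 0 CPM at day 7 (log2 fold change 5.56 ± 1.17 SE, adjusted p = 0.00194), and Sfrp4, a secreted Wnt modulator, had 79.8, 4.56, 3.78 and 2.06 CPM at day 30, against 0.789, 0.323, 0.639 and 0.694 CPM at day 7 (log2 fold change 5.19 ± 1.2 SE, adjusted p = 0.00399). Day 30 libraries were spread over a wide range for Alox15, and library 1 stood far above the others for Sfrp4, which was at 2.49 (adjusted p = 0.0378) without it. The coefficient ended both calls, with 1.95 (adjusted p = 0.784) for Alox15 and 1.87 (adjusted p = 0.747) for Sfrp4.

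WT hearts, which share no library with the Q150X comparison, changed in 5354 of 17845 genes (30.0%) between day 30 and day 7, with 2480 higher (13.9%) and 2874 lower (16.1%). Of the Q150X calls 3598 (64.2%) were also called in WT in the same direction, which is 67.2% of the WT calls, and 7 were called in opposite directions. Both genotypes carry the library trait at day 30, so the overlap includes it. Some WT libraries also held transcripts of other tissue. WT day 30 library 3 had Sftpc at 120 CPM and Adipoq at 8.5 CPM, and WT day 7 library 4 had the placenta marker Tpbpa at 466 CPM. Without WT day 30 library 3, 3315 genes were called in WT, and without WT day 7 library 4, 4180. Pdk4 was at -4.12 in WT, Cd36 at -1.42 and Isg15 at 3.95. By lists, 18 fatty acid oxidation genes fell and 1 rose in WT, and 25 type I interferon genes rose. In WT all 15 NF-κB feedback genes and 17 of 22 interferon-γ genes rose, where Q150X had 7 and 5, but counts of calls in 2 genotypes do not test their difference. Without Q150X day 7 library 2, the Q150X counts were 7 and 18, so the lower interferon-γ count rested on that library.

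The difference between the genotypes in the change between the days was tested for every gene in 1 model. No gene passed at an adjusted p under 0.05 (0.00% of 17845) in edgeR's quasi-likelihood test, with 979 genes (5.49%) at an unadjusted p under 0.05, while DESeq2 called 50 genes and limma-voom with library weights 48. The smallest adjusted p, 0.0587, was that of Fosl2 and Sbno2. Fosl2, an AP-1 subunit, had 53.4, 67.3, 45.3 and 58.9 CPM at day 30, against 62, 112, 83.7 and 96.8 CPM at day 7 in Q150X hearts. In WT hearts it had 184, 129.8 and 225 CPM at day 30, against 70.002, 68.7, 100.04 and 66.9 CPM at day 7. The log2 fold change was -0.66 in Q150X and 1.23 in WT, a difference of -1.89 ± 0.30 (SE). The fall in Q150X lost its call without day 30 library 3 or day 7 library 2 or 4 (-0.559, -0.524 and -0.614). Sbno2, a transcriptional coregulator, was at 0.09 in Q150X and 1.87 in WT. Ptx3 (pentraxin 3), a soluble pattern receptor, had 2.68, 3.15, 3.38 and 1.51 CPM at day 30, against 4.49, 9.43, 3.23 and 3.87 CPM at day 7 in Q150X hearts and 59.5, 10.4 and 199.8 CPM at day 30, against 4.94, 5.26, 2.61 and 5.09 CPM at day 7 in WT hearts. Its difference was -5.3 ± 0.93 (adjusted p = 0.0870). On the other side, Fam102a differed by 1.25 (adjusted p = 0.161), Kif26b, a kinesin-like protein, by 1.52 (adjusted p = 0.211), and Stab2, a scavenger receptor of sinusoidal endothelium, by 2.37 (adjusted p = 0.214). None of the 6 passed the threshold. Vegfa was at -0.45 in Q150X and -0.53 in WT, a difference of 0.09 ± 0.50 (SE).

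**Figure D5:**
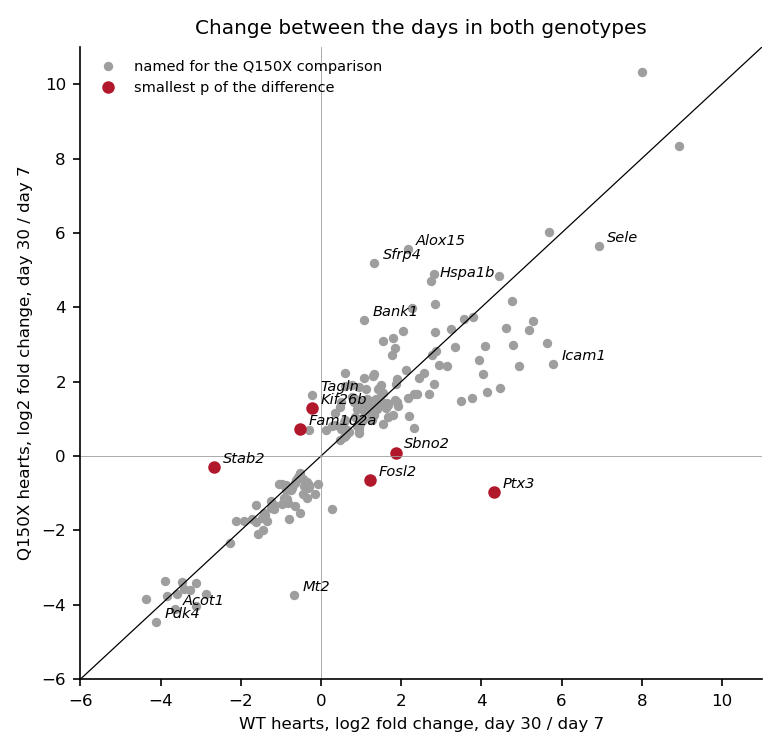
Log2 fold change of day 30 over day 7 in Q150X hearts (vertical) and WT hearts (horizontal) for the genes chosen by the naming rule, with the line of equal change. The 6 genes with the smallest p of the difference are in red. Pdk4 and Acot1 lie near the line at the lower left, while Ptx3, Fosl2 and Sbno2 lie below it, and none of the differences passed the threshold.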

How the data were processed

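RNA of total cardiac cells was sequenced by the authors, and the deposited table holds raw counts per gene; per the submitters' processing notes HISAT2 and kallisto were used with genome build GRCm39. The sources used here do not give their versions, the annotation or the strand setting, so reads of overlapping or near-identical genes cannot be told apart. Gene symbols came from GENCODE vM21 (GRCm38) by gene ID and matched 52029 of 57010 IDs. Where IDs shared a symbol, the ID with the most counts kept it. Samples were grouped by genotype and time in the labels. Promoters came from RefSeq (GRCm38.p6).

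All 21 heart libraries, which included the 3 WT and 3 Q150X uninjured ones, were fitted together with 1 mean per group in edgeR 4.0.16 (R 4.3.3) by the quasi-likelihood test with robust dispersion, TMM scaling and filterByExpr (minimum count 10, minimum total 15), which left 17845 genes. P-values were adjusted by Benjamini-Hochberg over these genes and read at 0.05, and the SE is the size of the log2 fold change divided by the square root of F. CPM uses TMM-scaled library sizes. The same fit gave the WT contrast and the difference between genotypes. Alternatives were other scalings, no filter, DESeq2 1.42.0, limma 3.58.1 with voom weights, the compared groups alone, a replicate block, each library left out, the library coefficient, and day 30 libraries 3 and 4 left out. The last 2 were chosen after seeing the data.

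The members and gene lists were chosen with earlier results of these data known. Genes were named by a rule: the 12 largest called rises and falls with a mean log2 CPM of at least 1 and no overlap between the days, up to 4 called genes with the smallest p in each list, the VEGF genes Vegfa, Kdr and Flt1, and for the difference the 3 smallest p in each direction. Other list members are given by value and were picked after their values were seen. The test was run on simulated data, whose libraries shared 1 gene profile apart from the genes set to change. That check therefore does not cover the library trait or transcripts of other tissue. At 27617401 counts or more per library, CPM under 1 rests on few reads and its fold change is imprecise. No 2 of the replicate libraries were identical. Same-numbered replicates did not deviate together, so no pairing was used. Some genes of the lists are counted but not reported here by name.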

Additional observations from a re-analysis of the deposited data

Results flagged for a closer look

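Among 374 groups of 4 libraries (187 genes named by the rule, at each day in Q150X hearts), 18 (4.81%) held 1 library whose gap to its nearest neighbour took up nearly all of the group's range, and chance flags about 1 group in 20. At day 30, the isolated libraries were library 1 for Sfrp4 (79.8 CPM), library 2 for Car3 (135 CPM) and Ngp (5.2 CPM), library 3 for Tagln (1.42 CPM), Bank1 (3.00 CPM), Slc27a1 (93.5 CPM) and Tnnt2 (2628 CPM), and library 4 for Selplg (11.5 CPM), Jun (199.9 CPM), Kcnd3 (10.6 CPM) and Kdr (152 CPM). Slc27a1, Tnnt2 and Selplg were isolated at the low end and the others at the high end. At day 7, they were library 1 for Cd5l (2.22 CPM), mt-Atp8 (15.9 CPM), Lrrc15 (7.45 CPM) and Ndrg1 (51.8 CPM), library 2 for Tnf (2.56 CPM) and Irf9 (29.6 CPM), and library 3 for Kdr (122 CPM). Of these, mt-Atp8, Ndrg1 and Kdr were isolated at the low end. The flagged day 7 values of Tnf and Irf9 both lay in library 2, the library with high interferon genes.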

How the results depend on the processing

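The number of genes called between the days in Q150X hearts, 5603, ranged from 4161 to 5121 when each library was left out. It was 2848 with the library coefficient and 2941 without day 30 libraries 3 and 4. Higher counts came with voom weights (8212), the compared groups alone (6877) and DESeq2 (6358), and a lower one with no filter (4427). The share of rises among the calls was 47.3% and fell to 32.2% with the coefficient. The share was 51.4% with DESeq2 size factors in edgeR, 52.3% without a composition factor and 52.0% with DESeq2. Whether rises or falls were more numerous thus depended on the scaling. For WT hearts the count, 5354, ranged from 3315 to 4644 on leaving out libraries, lowest without day 30 library 3, and was 8625 with voom weights and 2100 with the coefficient. For the difference between genotypes the count was 2 with no filter, 50 with DESeq2, 48 with voom weights, 7 with the compared groups alone and 7 with the coefficient. It ranged from 0 to 53 on leaving out libraries, highest without WT day 30 library 2. With the replicate number as a block, the counts were 3871 in Q150X, 2417 in WT and 0 for the difference, and same-numbered Q150X libraries deviated with correlations of -0.069 to 0.084, so they share only a number. The mitochondrial share differed by 0.601 to 2.81 percentage points on leaving out libraries. Of 187 genes named, the coefficient kept the call and sign of 71, ended the call of 94 and turned the sign of 22. The turned log2 fold changes were -0.87 for Cfd, -0.71 for Comp, 1.89 for mt-Ts1, -0.0897 for Col12a1, -0.27 for Fbln2, -1.14 for Ccn5, -0.25 for Timp2, -0.0444 for Acta2, -0.27 for Ltbp4, -0.00345 for Bambi, -0.038 for Cd63, -0.11 for Itgax, 3.45 for Mt2, -0.12 for Upk3b, -0.14 for Tubb6, 0.31 for Ndufb8, 0.0634 for Ireb2, -0.24 for Igfbp5, 1.38 for Vegfa, 0.44 for Kdr, 0.33 for Stab2 and -0.23 for Sbno2. Sbno2 ranged from -0.0389, without Q150X day 30 library 2, to 0.205 on leaving out libraries. The cause was not tested. Without day 30 libraries 3 and 4, 33 genes lost their call and none turned. The coefficient is estimated from the 6 uninjured libraries, of which both library 1s also held atrial and fat transcripts, so it takes these up too, and genes under 1 CPM are limited by depth.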
